A study of Mus musculus with 41 samples.

Results

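The genes described here are Myc and 9 growth genes, chosen by symbol: Ncl, Npm1, Nop56, Nop58, Fbl, Odc1, Srm, Eif5a and Cad. All 10 were found among the 50763 genes of the count table and among the 41069 of its genes that also have a TPM value (a level per length of gene). They were measured by bulk RNA sequencing of B cell subsets sorted from the spleens of mice aged 3 to 5 months, to compare wild-type (wt) mice with mice mutant for Mek1 and Mek2, the kinases that activate Erk. The mutants, labelled 1Mek2, carried 2 floxed Mek1 alleles, 1 intact and 1 deleted Mek2 allele, and Vav1-icre, a Cre recombinase driven in blood-forming cells and their progeny from early on, so that any cell of the blood lineages and not only B cells can carry the deletion. Immature cells were sorted as B220+CD93+CD138-, GC (germinal center) cells by GL7 and FAS, Plasma cells as B220+CD138+, Follicular cells by CD21 with CD23, and MarginalZone cells by CD21 without CD23. For ABC, age-associated B cells, the sources used here state no gate. There were 3 wt and 3 1Mek2 libraries of Immature, ABC, MarginalZone and Plasma cells and 4 and 4 of GC and Follicular cells, 40 in all from 16 mice. An Immature library labelled 1Mek2 whose name reads Mek1ff was left out, and GC wt replicate 4, whose name also reads Mek1ff, was kept as labelled.

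Myc is a transcription factor that binds DNA with its partner Max and raises transcription of genes for ribosome production, nucleotide supply and translation. In B cells it is induced when the antigen receptor or T cell help drives growth, and Erk signalling, downstream of Mek1 and Mek2, is known to stabilise the Myc protein. Ncl (nucleolin) and Npm1 (nucleophosmin) are abundant nucleolar proteins of ribosome assembly. Nop56, Nop58 and the methyltransferase Fbl (fibrillarin) form the protein core of the box C/D particles that methylate ribosomal RNA. Odc1 makes putrescine and Srm turns it into spermidine, which in turn supplies the hypusine residue that the translation factor Eif5a needs. Cad catalyses the opening steps of pyrimidine synthesis.

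Counts per gene span (exons and introns) totalled 7883989 to 34925667 per library. In these counts Map2k1, the gene of Mek1, did not differ on average in 1Mek2 libraries (limma log2 difference -0.32 ± 0.18 SE, adjusted p = 0.34). Map2k2, the gene of Mek2, was higher (1.10 ± 0.30, adjusted p = 0.018). Neither gene-span level bears out the labels, by which the groups are named below. In Immature cells Map2k1 stood at 167, 173 and 144 TPM in wt and at 141, 54.3 and 89.0 in 1Mek2, lower without overlap. In GC cells it overlapped, at 186, 107, 120 and 110 TPM in wt and at 127, 122, 137 and 143 in 1Mek2. Counts over a whole gene do not show whether deleted exons were read. B cell markers were seen in every group, 5 of 6 genes, with Ms4a1 at 0 in the count table throughout, but ABC 1Mek2 replicate 3 held a sum of 236 CPM (counts scaled to a common library size) of age-associated markers against 4738 to 5345 in replicates 1 and 2 and 4036 to 7543 in ABC wt. The ABC wt libraries stood apart in quality: reads on exons came to 39.9 to 50.02% of gene-span counts there and to 72.7 to 89.7% in ABC 1Mek2. Map2k1 stood at 1188, 1379 and 439 CPM by gene span in ABC wt but at 9.16, 3.14 and 35.8 CPM in exon reads. Genes other than the 10 divided the ABC, Follicular, MarginalZone and Plasma libraries into library type 1 (7 libraries) and library type 2 (19), and none of the 8 mice with 2 or more such libraries had both. The type 1 libraries are ABC 1Mek2 replicate 3, Follicular wt replicate 4, Follicular 1Mek2 replicate 2, MarginalZone wt replicate 2, Plasma wt replicates 1 and 3 and Plasma 1Mek2 replicate 2. The types were set by an index of genes that separate the Follicular libraries, 2.93 to 3.38 in type 1 and -3.49 to 0.314 in type 2. No type was assigned to Immature and GC libraries, whose index, 1.70 to 3.41, lay above that of every type 2 library. Mouse 323 had an index of 2.84 in Immature and 3.10 in GC but of -2.67 in MarginalZone and -0.751 in Plasma cells. In bulk libraries, fewer cells of a type and less RNA per cell cannot be told apart.

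Myc with Max favours the E-box CACGTG, which is its own reverse complement and so reads alike on both strands. RefSeq promoter sequences (GRCm38.p6) were matched for 6 of the 10 genes, namely Ncl, Nop56, Nop58, Odc1, Cad and Eif5a. Within the 250 bases before their starts, 1 of the 6, Eif5a, held CACGTG, against 6.86% of all 27025 genes and 6.02% of all 32851 promoters with a sequence. Eif5a has several listed starts, some of them without a match, while each of the others has 1, so Eif5a had more sequence to match. The 2 Eif5a matches are shown because the results between genotypes turn on Eif5a. They lie on the minus strand at chr11:69921443-69921472, at -86 to -57 or -197 to -168 from 2 of the listed starts, and at chr11:69920791-69920820, at -190 to -161 from another, with the motif in capitals.
Eif5a E-box a: aaggggcggggtCACGTGtgtgcgtcatcc
Eif5a E-box b: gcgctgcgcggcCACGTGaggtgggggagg
A match describes these letters only. No binding was measured.

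Per length of gene, Eif5a had the highest mean of the 10 in every wt subset except ABC, where Ncl was higher (222 TPM ± 130.4, SD, n = 3), and Cad the lowest in all 6. Mean Eif5a ran from 215 TPM ± 161 (SD, n = 3) in ABC to 1101 TPM ± 128 (n = 4) in GC cells, and mean Cad from 1.95 TPM ± 2.25 in ABC to 12.3 TPM ± 5.16 in Follicular cells. Npm1 reached 398 TPM ± 113 and Ncl 258 TPM ± 42.1 in GC cells. Myc itself lay between 44.0 TPM ± 20.02 in Plasma and 130.0 TPM ± 21.9 in Immature cells. The values below are CPM of gene-span counts, scaled by edgeR's TMM factors over the 40 libraries, and a gene is called changed where its adjusted p (Benjamini-Hochberg over all genes tested) is under 0.05. A log2 fold change is given as the named group minus its reference.

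**Figure D1:**
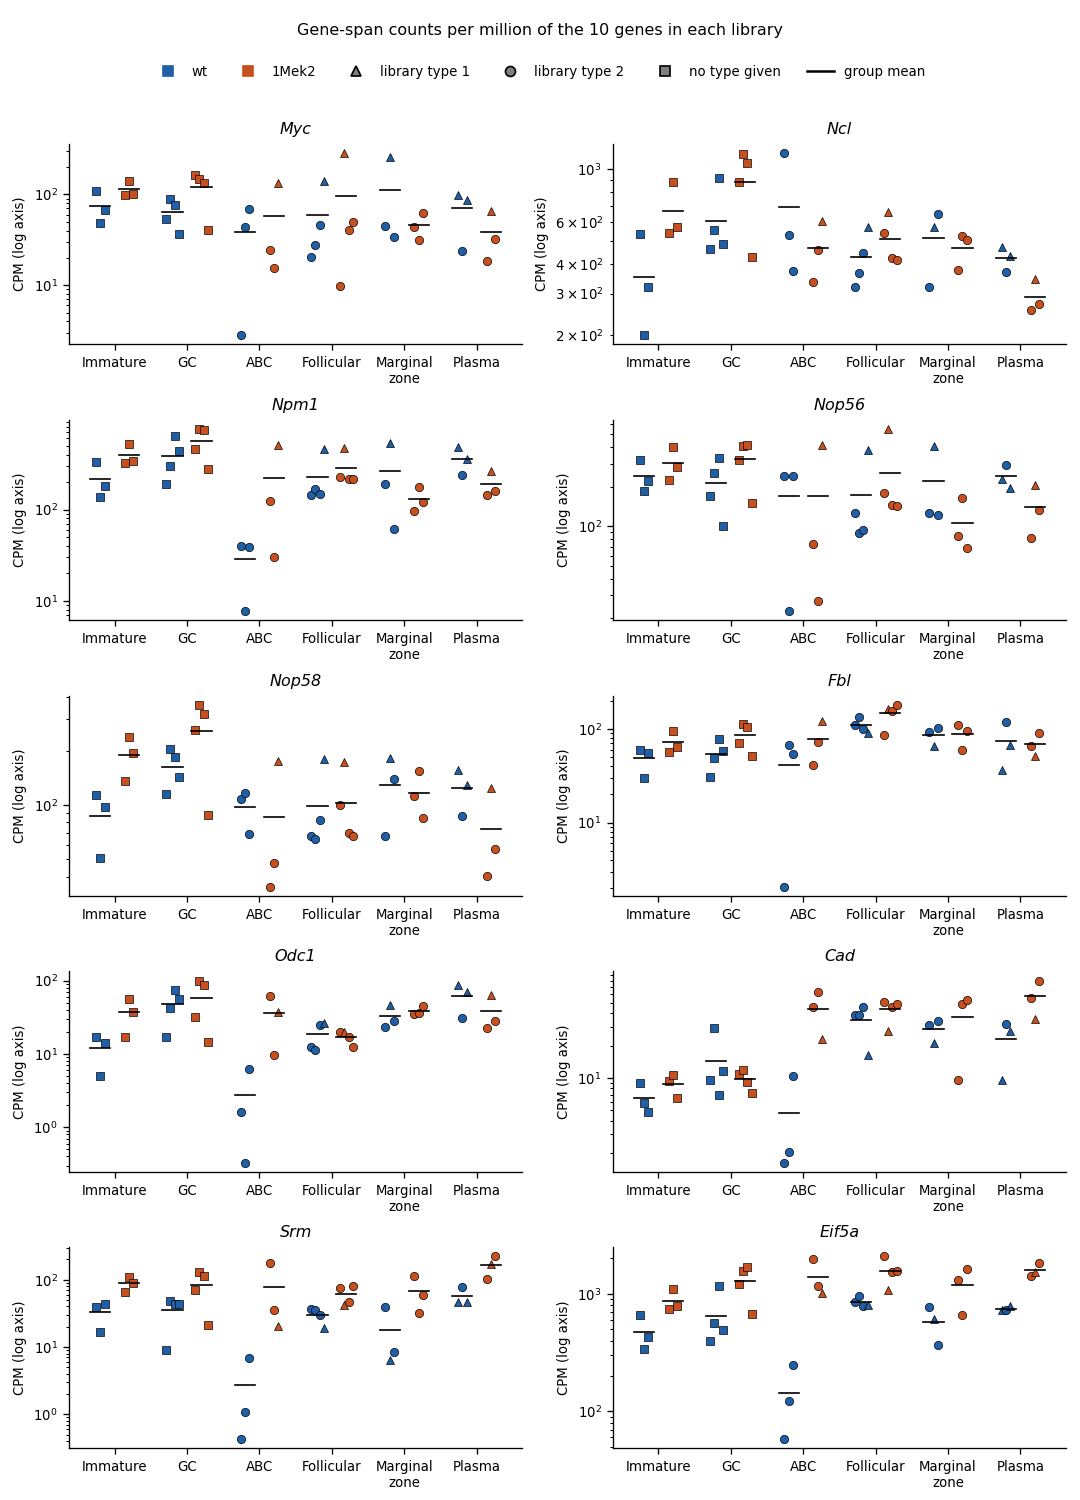
Gene-span CPM (log axis) of each of the 10 genes in the 40 libraries, by sorted subset, with wt and 1Mek2 in separate colours, library type as marker shape and bars at the group means. Eif5a and Srm means are higher in 1Mek2 than in wt in every subset, and Myc and Npm1 are high in the type 1 libraries of each subset.

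Myc overlapped between all wt subsets. In wt libraries, in replicate order, it stood at 109, 48.2 and 68.0 CPM in Immature, 53.2, 88.5, 76.2 and 36.4 in GC, and 20.6, 28.0, 46.4 and 142 in Follicular cells. It stood at 2.80, 43.7 and 69.4 in ABC, 44.9, 259 and 34.3 in MarginalZone and 99.5, 24.1 and 86.7 in Plasma cells. The highest Follicular, MarginalZone and Plasma values are those of type 1 libraries. Against Follicular wt the log2 difference was 0.89 ± 0.62 (SE) in Immature, 0.39 ± 0.54 in GC and -0.65 ± 1.13 in ABC cells, and no subset passed the edgeR test, with adjusted p from 0.29 to 0.85 over the 5 subsets. Neighbours in the order of wt means, from MarginalZone (113 CPM) through Immature, Plasma, GC and Follicular to ABC (38.7 CPM), overlapped at every step.

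Follicular wt is the reference of all 5 comparisons with the other subsets, so they share its 4 libraries, of which replicate 4 is of type 1. Without that library Myc was higher in Immature (log2 1.48, adjusted p = 0.0017) and in GC cells (1.28, adjusted p = 0.014). Members called then rose from 1 to 6 in Immature, from 1 to 6 in GC and from 2 to 5 in Plasma cells, where 59.1%, 38.6% and 30.6% of all genes were called. With that library as the only reference 0 members were called in Immature and in GC cells. The fits without replicate 4 set Immature and GC libraries, whose type index lay above that of every type 2 library, against type 2 libraries alone. Library type and subset cannot be told apart for Immature and GC cells.

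Of the nucleolar proteins, Npm1 was lower in ABC than in Follicular wt cells and Ncl was not called. Ncl wt values were 1171, 529.6 and 372 CPM in ABC, within or above the Follicular values of 318, 368, 446 and 574 CPM. Npm1 stood at 40.4, 7.71 and 38.5 CPM in ABC wt and at 144, 167, 149 and 455 in Follicular wt. Every ABC wt library was below every Follicular one for Npm1. The log2 difference of Npm1 was -2.89 ± 0.89 (edgeR adjusted p = 0.042), and that of Ncl 0.91 ± 0.55 (adjusted p = 0.23).

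In ABC wt against Follicular wt, 8.3% of all genes were called lower and 11.9% higher. Members called lower were 2 of 10, Npm1 and Eif5a, and 0 were called higher. The median log2 difference was -1.86 over the 10 genes and 0.08 over all genes tested. Eif5a stood at 58.2, 122 and 247 CPM in ABC wt, below each of the Follicular wt values of 852, 961, 784 and 795 CPM, a log2 difference of -2.45 ± 0.54 (edgeR adjusted p = 0.015). Srm at 0.431, 1.09 and 6.77 CPM, Odc1 at 1.61, 0.326 and 6.23 and Cad at 1.61, 2.06 and 10.5 were also each below their 4 Follicular wt values, with log2 differences of -3.33 ± 1.14 for Srm, -2.69 ± 1.16 for Odc1 and -2.72 ± 1.03 for Cad and edgeR adjusted p from 0.059 to 0.11. Without ABC wt replicate 3 these 3 genes passed, at log2 -5.24, -4.19 and -4.13, in a fit that called 25.5% of all genes lower. Fbl, at 2.05, 67.4 and 53.5 CPM, was below its Follicular wt values of 111, 134, 101 and 90.5 as well, with a log2 difference of -1.27 ± 0.99 (edgeR adjusted p = 0.35). In all, 6 of 10 members had every ABC wt library below every Follicular wt library, as had 25.5% of all genes.

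The same mice gave ABC wt and Follicular wt replicates 1 to 3. With the mouse as a block, Npm1 no longer passed (log2 -2.40, edgeR adjusted p = 0.15), and it was also lost without each Follicular wt library in turn and without ABC wt replicate 2, at adjusted p from 0.069 to 0.14. Eif5a kept its call without any 1 of the 7 libraries, at log2 -3.19 to -2.16, but not in exon reads (-1.54, adjusted p = 0.11). In a fit with the summed level of 28 long neuronal genes as a term, the log2 difference was 0.60 for Npm1 and 0.043 for Eif5a, with edgeR adjusted p = 1. That sum, of genes that B cells do not use, was 915 to 3834 CPM in ABC wt and 34.4 to 111 CPM in Follicular wt. With no overlap in the sum, the term cannot be told apart from the subset, and the change of sign cannot be read. Of the 10 genes of the plasmacytoid dendritic cell list Cox6a2 and Smim5 were at 0 in every group. The list summed to 11606 to 19780 CPM in ABC wt and to 1852 to 3216 CPM in Follicular wt. Their part in the difference was not tested.

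No gene of the box C/D core passed the test in any wt subset against all 4 Follicular libraries. Nop58 was at 115, 204, 186 and 144 CPM in GC wt and at 66.9, 64.9, 82.3 and 181 in Follicular wt, where the 181 of the type 1 library lies within the GC range (log2 1.08 ± 0.40, edgeR adjusted p = 0.063). Without Follicular wt replicate 4 Nop58 was higher in GC cells, at log2 1.49 (adjusted p = 0.0026). Nop56 spanned 22.7 to 411 CPM over the wt libraries. Fbl was below all 4 Follicular wt values in Immature (60.2, 29.8 and 55.7 CPM) and GC wt (30.4, 48.9, 77.5 and 57.6 CPM) as in ABC, with log2 differences of -0.46 ± 0.29 and -0.59 ± 0.32 (edgeR adjusted p = 0.24 and 0.21). Members below all Follicular wt libraries were 3 of 10 in Immature (Cad, Fbl and Eif5a), against 24.3% of all genes, and 1 of 10 in GC (Fbl), against 16.8%. In MarginalZone and in Plasma cells 1 of 10 was, Eif5a, against 5.42% and 15.7%, although its log2 difference in Plasma was 0.02 ± 0.27. The CPM values are scaled over all 40 libraries and each fit over its 2 groups, so they can disagree. In Immature cells the log2 difference of Eif5a was only -0.14 ± 0.26. There Ncl, Npm1 and Nop58 had lower mean CPM than in Follicular wt but log2 differences above 0. Without replicate 4 Nop56 was higher in Immature (1.47, adjusted p = 0.00016), GC (1.27, adjusted p = 0.010) and Plasma cells (1.502, adjusted p = 0.0048), and Fbl lower in Immature cells (-1.01, adjusted p = 0.0049).

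Odc1 was higher in wt GC and Plasma cells than in Follicular cells. Its values were 17.0, 42.0, 74.2 and 56.6 CPM in GC, 86.0, 30.4 and 70.2 in Plasma and 12.3, 11.4, 24.5 and 26.1 in Follicular cells. The 3 Plasma libraries were above all 4 Follicular ones, and GC replicate 1 overlapped with them. Members above all Follicular wt libraries in Plasma cells were 2 of 10, Odc1 and Srm, against 14.9% of all genes. The log2 difference was 1.75 ± 0.48 in GC (3.37-fold, edgeR adjusted p = 0.016) and 1.91 ± 0.50 in Plasma cells (3.76-fold, edgeR adjusted p = 0.026). In GC cells 1 of 10 members, Odc1, was called higher where 14.6% of all genes were, and 0 were called lower where 10.5% were, with a median log2 difference of 0.61 over the 10 genes and 0.04 over all genes. The GC call was lost without GC wt replicate 4, the library named Mek1ff (1.41, adjusted p = 0.063).

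Odc1 was also higher in GC than in Immature wt cells, where it stood at 17.1, 4.97 and 14.3 CPM (log2 2.08 ± 0.58, 4.22-fold, edgeR adjusted p = 0.017). It was 1 of 10 members called higher there, against 1.94% of all genes, and 0 were called lower, against 0.67%. The medians were 0.72 over the 10 genes and 0.04 over all genes. Mice 358, 413 and 487 gave both subsets, and with the mouse as a block Odc1 no longer passed (1.93, edgeR adjusted p = 0.060). It passed without GC wt replicate 1 (adjusted p = 0.039) and without none of the other 6 libraries, at log2 1.51 to 2.19 over the 7.

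In Plasma cells Srm joined Odc1. Srm stood at 47.3, 77.7 and 47.2 CPM in Plasma wt and at 36.5, 35.6, 29.9 and 19.3 in Follicular wt, with no overlap (log2 1.15 ± 0.33, 2.21-fold, edgeR adjusted p = 0.039). These 2 of 10 members were called higher where 12.2% of all genes were, and 0 were called lower where 5.53% were. The medians were 0.40 over the 10 genes and -0.01 over all genes. Srm was lost without each of Follicular wt replicates 1, 2 and 3 and Plasma wt replicates 2 and 3 (adjusted p 0.083 to 0.13), and Odc1 without Follicular wt replicates 1, 2 and 3 and Plasma wt replicates 1 and 3 (0.058 to 0.098). With library type as a term both passed, Odc1 at 1.36 (adjusted p = 0.027) and Srm at 1.37 (adjusted p = 0.0038). The Plasma wt libraries also held neutrophil markers (10 of 10 genes, 1528 to 4544 CPM against 0.168 to 1.96 in Follicular wt) and T cell markers (9 of 10 genes, 3046 to 6602 CPM against 336 to 728). Macrophage and monocyte markers (10 of 10 genes, 1715 to 2791 CPM against 77.4 to 263) and erythroid markers (9 of 10, 1155 to 1899 CPM against 143 to 219) were higher as well without overlap, and the part of these markers was not tested.

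Cad was the 1 gene of the 10 called in Immature cells, where it was lower. It stood at 9.04, 5.82 and 4.80 CPM in Immature wt and at 38.5, 38.6, 45.4 and 16.3 in Follicular wt, and the groups did not overlap. The log2 difference was -1.64 ± 0.41 (edgeR adjusted p = 0.0059), and it passed without any 1 library, at log2 -2.40 to -1.46. It was 1 of 10 members called lower where 7.15% of all genes were, and 0 were called higher where 32.3% were, with medians of 0.39 over the 10 genes and 0.47 over all genes. It did not pass with the neuronal gene term (-2.62, adjusted p = 0.33) or against Follicular wt replicate 4 alone (-0.93, adjusted p = 0.45). The neuronal sum was 946 to 2161 CPM in Immature wt and 34.4 to 111 CPM in Follicular wt, so that term cannot be told apart from the subset. In MarginalZone cells 0 of 10 members and 0.34% of all genes were called by edgeR, 0 members with an unadjusted p under 0.05 and 0 by DESeq2 or limma voom, with medians of 0.18 and 0.02.

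**Figure D2:**
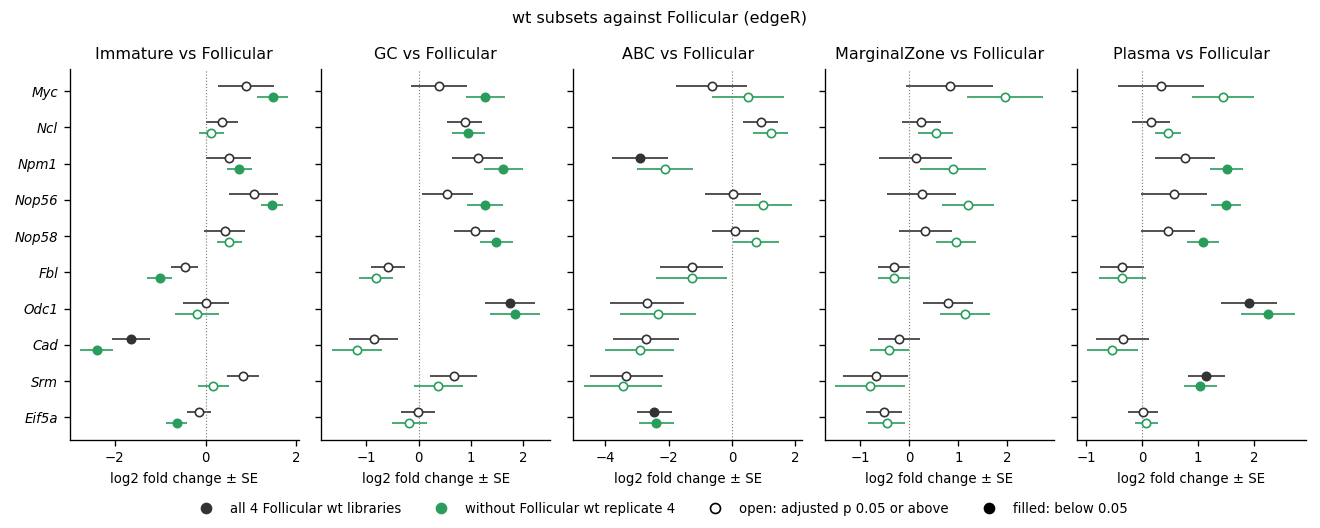
Log2 fold change with its SE (x axis) of the 10 genes in each wt subset against Follicular wt from edgeR, with all 4 Follicular libraries or without replicate 4, filled where the adjusted p is under 0.05. Leaving out that library moves Myc, Npm1, Nop56 and Nop58 upward in Immature, GC and Plasma cells and takes the members called from 1, 1 and 2 to 6, 6 and 5.

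Between genotypes, Eif5a was higher on average in 1Mek2 libraries of every subset. It stood at 735, 1109 and 783 CPM in Immature 1Mek2 against 659, 337 and 427 in wt, and at 1202, 1569, 1695 and 677 in GC 1Mek2 against 399, 559, 1159 and 487. In ABC it was 1963, 1170 and 1012 against 58.2, 122 and 247, and in Follicular cells 2078, 1068, 1532 and 1555 against 852, 961, 784 and 795. In MarginalZone it was 1303, 666 and 1622 against 765, 610.2 and 366, and in Plasma cells 1418, 1528 and 1819 against 731, 734 and 781. The genotypes did not overlap in Immature, ABC, Follicular and Plasma cells and overlapped in GC and MarginalZone cells.

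Srm followed the same order of means. It stood at 65.5, 111 and 89.4 CPM in Immature 1Mek2 against 38.8, 16.5 and 42.9 in wt, and at 69.5, 129, 114 and 21.0 in GC 1Mek2 against 9.10, 47.8, 43.2 and 43.3. In ABC it was 178, 35.5 and 20.4 against 0.431, 1.09 and 6.77, and in Follicular cells 75.9, 41.7, 46.6 and 79.9 against 36.5, 35.6, 29.9 and 19.3. In MarginalZone it was 114, 32.2 and 58.5 against 39.0, 6.35 and 8.54, and in Plasma cells 104, 171 and 222 against 47.3, 77.7 and 47.2. As for Eif5a, the genotypes overlapped in GC and MarginalZone cells and in no other subset.

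Within single subsets edgeR called 0 of the 10 members in each of the 6. Over all genes it called 0.933% in Immature, 0.054% in GC and 0.0605% in Plasma cells and 0% in ABC, Follicular and MarginalZone cells. Members with an unadjusted p under 0.05 numbered 6 for Immature, 2 for GC, 5 for ABC, 2 for Follicular, 0 for MarginalZone and 3 for Plasma cells. Of all genes 8.71%, 12.1%, 20.003%, 11.1%, 8.77% and 15.4% did, in the same order. Without ABC 1Mek2 replicate 3, and without GC wt replicate 4, edgeR likewise called 0 members in that subset. DESeq2 called 4 members in ABC (Odc1, Cad, Srm and Eif5a), 2 in Follicular and 2 in Plasma cells (Srm and Eif5a in both) and 0 elsewhere, and limma voom 1, Eif5a in ABC. DESeq2 called 11.48% of all genes in ABC, 0.948% in Follicular and 7.26% in Plasma cells, and limma voom 1.89% in ABC.

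The members whose 1Mek2 libraries all exceeded the wt libraries were read against the share of all genes that did so. They were 4 of 10 in Immature cells (Srm, Nop58, Ncl and Eif5a), against 8.52% of all genes. They were 4 of 10 in ABC (Srm, Eif5a, Cad and Odc1), against 13.7%, and 2 of 10 in Follicular cells (Srm and Eif5a), against 3.28%. They were 3 of 10 in Plasma cells (Srm, Eif5a and Cad), against 10.8%, while Ncl, at 255, 345 and 269.9 CPM in 1Mek2 and 473, 370.1 and 431 in wt, was 1 of 10 with all 1Mek2 libraries lower, against 12.9%. In GC and MarginalZone cells 0 of 10 had all 1Mek2 libraries higher, against 3.38% and 6.9%. In Plasma cells B cell markers (5 of 6 genes seen, Ms4a1 at 0) summed to 1795 to 2273 CPM in 1Mek2 and 486 to 839 CPM in wt. Follicular markers (5 of 6, Ighd at 0 in every group) summed to 134 to 243 CPM and 748 to 917 CPM. T cell markers summed to 2610 to 2994 CPM in 1Mek2 and 3046 to 6602 CPM in wt, and neutrophil, macrophage and erythroid sums overlapped. Germinal center, age-associated and plasmacytoid dendritic cell markers were higher and marginal zone markers lower in Plasma 1Mek2, each without overlap. In ABC B cell markers summed to 7513 to 9488 CPM in 1Mek2 and 3342 to 4639 CPM in wt, germinal center markers to 163 to 568 CPM and 974 to 1816 CPM, and the neuronal genes to 24.1 to 729 CPM and 915 to 3834 CPM. Neutrophil markers were higher in ABC 1Mek2, at 43.1 to 255 CPM against 0 to 0.431 CPM, and marginal zone markers lower without overlap. The part of these markers in the differences was not tested.

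Most of the 10 genes had log2 differences above 0 in Immature, Follicular, GC and ABC cells and not in MarginalZone and Plasma cells, which describes these libraries and was not tested. Immature and Follicular cells had 10 of 10 log2 differences above 0, with medians of 0.80 and 0.55 over the members and of -0.17 and 0.02 over all genes. GC cells had 9 of 10 above 0 (0.51 against -0.09) and ABC 8 of 10 (2.13 against 0.03). MarginalZone cells had 5 of 10 (-0.04 against 0.02) and Plasma cells 4 of 10 (-0.49 against -0.02). Myc differed by 0.53 ± 0.38 in Immature, 0.82 ± 0.38 in GC and 0.85 ± 0.99 in Follicular cells and by -1.34 ± 0.80 in MarginalZone and -0.72 ± 0.66 in Plasma cells, with edgeR adjusted p from 0.41 to 0.78 over the 6 subsets.

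In Immature 1Mek2 cells markers of dividing, plasma, germinal center and age-associated cells were higher than in wt without overlap, while edgeR called 0 of the 10 members. Cell cycle genes summed to 2294 to 4427 CPM there and to 240 to 1503 CPM in Immature wt, and plasma cell markers (8 of 8 genes seen) to 1745 to 6594 CPM against 252 to 968 CPM. Germinal center markers (8 of 8 genes seen) summed to 1040 to 1548 CPM against 143 to 610 CPM, and age-associated markers to 264 to 444 CPM against 186 to 221 CPM. The sums of the other marker lists overlapped. Among them, neutrophil markers reached 293 CPM in 1Mek2 replicate 2 and at most 3.37 CPM in wt. Odc1 stood at 17.0, 56.1 and 37.0 CPM in Immature 1Mek2, overlapping the wt values of 17.1, 4.97 and 14.3, and Nop58 at 135, 240.0 and 196 against 113, 51.0 and 97.5, above them. Without Immature wt replicate 1 edgeR called Ncl (log2 1.32, adjusted p = 0.046), Odc1 (1.90, 0.033) and Srm (1.56, 0.034), and without 1Mek2 replicate 2 Nop58 (1.29, 0.033), Odc1 (1.91, 0.020) and Srm (1.59, 0.015). These 2 fits called 2.37% and 3.33% of all genes. The part of the marker genes in these differences was not tested.

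**Figure D3:**
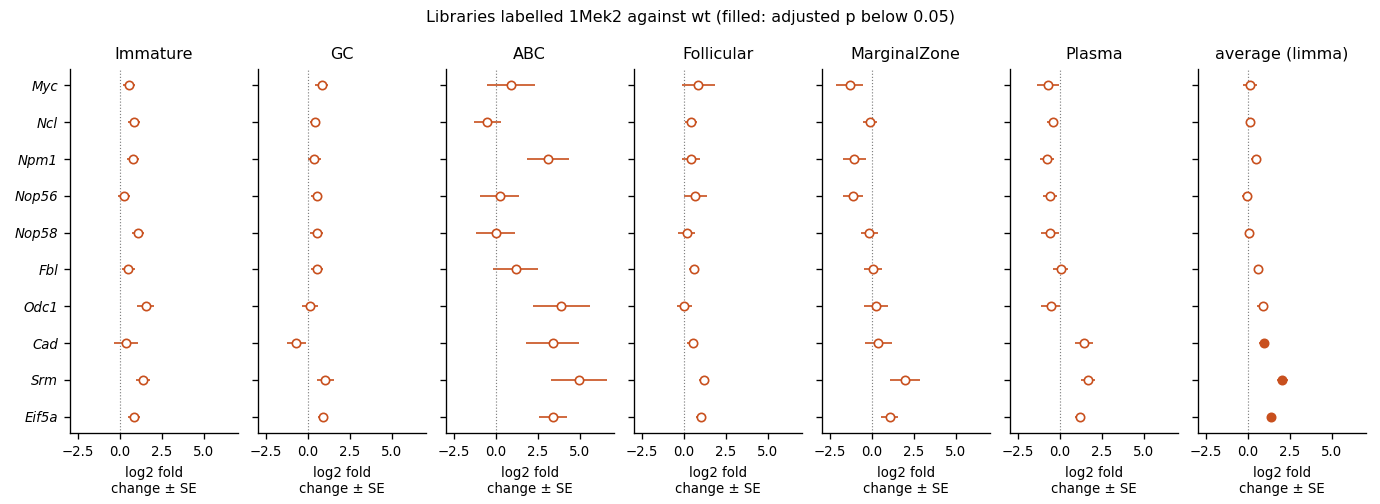
Log2 fold change with its SE (x axis) of the 10 genes in 1Mek2 against wt libraries, in each subset from edgeR and averaged over the 6 subsets from limma, filled where the adjusted p is under 0.05. Eif5a and Srm lie right of 0 in every panel, and 3 genes (Eif5a, Srm and Cad) are filled, in the average alone.

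Averaged over the 6 subsets, with each subset weighted alike and the mouse as a random block, 3 of 10 members were called higher in 1Mek2 by limma: Eif5a, Srm and Cad. Eif5a was 2.57-fold higher (log2 1.36 ± 0.16, adjusted p = 1.3e-06), Srm 4.13-fold (2.05 ± 0.34, adjusted p = 0.00011) and Cad 1.90-fold (0.92 ± 0.28, adjusted p = 0.043). Over all genes 4.63% were called higher and 1.36% lower, and 0 members were called lower. The median was 0.54 over the 10 genes and -0.12 over all genes. Myc averaged 0.10 ± 0.40 (adjusted p = 0.93), Ncl 0.14, Nop58 0.04 and Nop56 -0.08, with Odc1 at 0.87 (adjusted p = 0.12), Fbl at 0.61 (adjusted p = 0.17) and Npm1 at 0.46 (adjusted p = 0.44).

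The call of Cad rested on single mice and on ABC. Cad stood at 45.3, 63.2 and 23.0 CPM in ABC 1Mek2 against 1.61, 2.06 and 10.5 in wt, and at 55.8, 35.7 and 80.5 in Plasma 1Mek2 against 9.57, 32.0 and 27.6, without overlap in either subset. In GC cells it stood at 10.9, 11.96, 9.11 and 7.24 against 9.51, 29.1, 6.87 and 11.7, with the ranges overlapping. Without ABC its average was 0.44 (limma adjusted p = 0.56), and it did not pass without mouse 358, 412, 487, 562, 570, 634, 636, 654, 671 or 713, with adjusted p of 0.014 to 0.22 over the 16 mice. Eif5a (0.99, adjusted p = 0.00060) and Srm (1.4997, adjusted p = 0.0044) passed without ABC and without any 1 mouse. In Immature and GC cells alone Eif5a passed (0.95, adjusted p = 0.032), Srm did not (1.40, adjusted p = 0.064) and Cad lay at -0.025 (adjusted p = 0.97).

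The average also moved with terms for measures of the libraries. With the slope of gene level on GC content as a term limma called 6 of 10 members, against 16.4% of all genes, and Myc was among them at 0.85 (adjusted p = 0.038), with Nop58 at 0.52 (0.039), Npm1 at 1.02 (0.0016) and Odc1 at 1.20 (0.0055). With the share of reads on exons as a term it called 5 of 10, against 7.24% of all genes, and Myc was lower instead, at -1.24 (adjusted p = 0.028), as was Nop56 at -1.01 (adjusted p = 0.023). That share was 84.9 to 102.3% in Plasma wt and 97.3 to 128.5% in Plasma 1Mek2, so exon reads outnumbered gene-span counts in some libraries. It did not overlap between the ABC genotypes. The term is thus partly mixed with genotype and is no plain measure of quality. The sign of Myc between genotypes thus depended on which measure of the libraries was a term. With library type as a term 4 of 10 passed, Odc1 (0.96, adjusted p = 0.027) beside Eif5a, Srm and Cad, against 12.6% of all genes. Eif5a ranged from 1.07 to 1.36 and Srm from 1.72 to 2.01 under these 3 terms and a term for gene length, with a call under each.

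**Figure D4:**
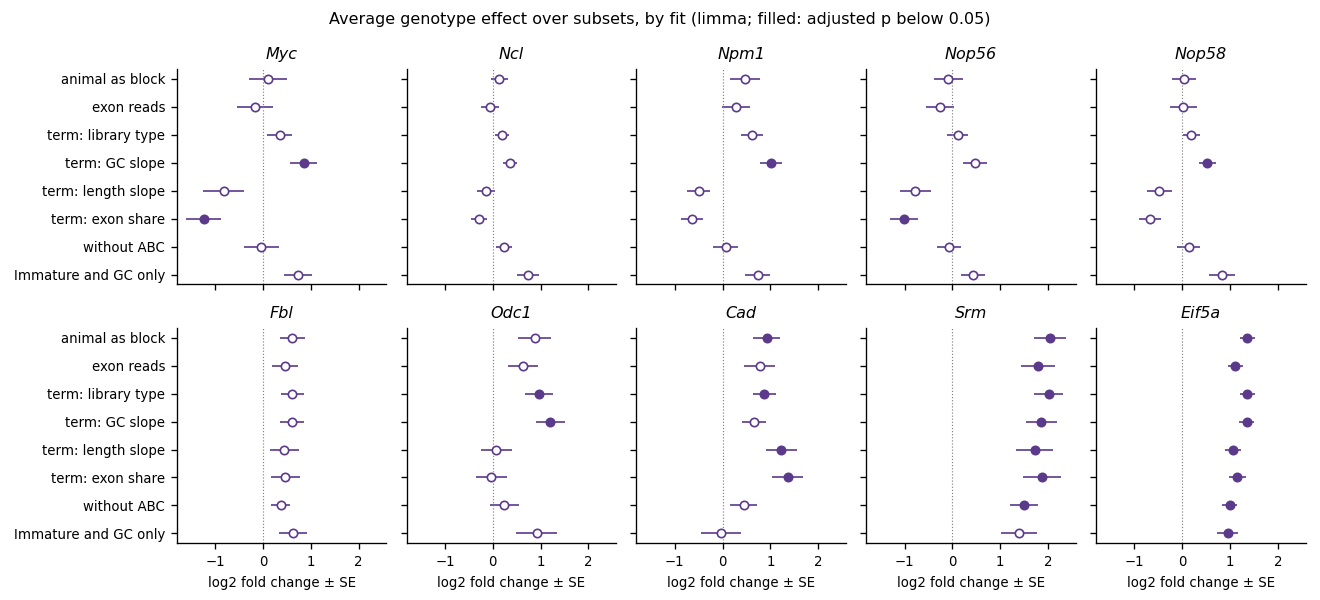
Average log2 fold change of 1Mek2 over wt with its SE (x axis) from limma under each fit (y axis), 1 panel per gene, filled where the adjusted p is under 0.05. Eif5a and Srm stay right of 0, while Myc runs from -1.24 with the exon share term to 0.85 with the GC slope term.

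Whether the genotype difference varied with the subset was tested by an edgeR F test with 5 degrees of freedom. It called 2% of all genes and 1 of 10 members, Eif5a (F = 5.12, adjusted p = 0.048), whose log2 difference was 3.41 ± 0.83 in ABC and between 0.81 and 1.20 in the other subsets. The ABC genotypes also differ in exon share and in the sums of neuronal genes and B cell markers given above. Without ABC Eif5a gave F = 0.05 (adjusted p = 1), and without Immature or Follicular cells its adjusted p was 0.068 and 0.072. Npm1 (F = 4.13, adjusted p = 0.096), Odc1 (4.01, 0.10), Cad (3.94, 0.11) and Srm (3.23, 0.17) did not pass, nor did Myc (1.06, 0.71).

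Myc, Npm1, Nop58 and Nop56 followed library type, which is given here as a description. In ABC, Follicular, MarginalZone and Plasma cells alike, the type 1 libraries exceeded every type 2 library of the subset for Myc, Npm1 and Nop58, and they did so in 3 of 4 subsets for Nop56. Of 9599 other genes 4.65% did so in all 4 subsets and 12.4% in 3 or more, and ABC and MarginalZone have 1 type 1 library each. Over all 4 subsets Npm1 stood at 266 to 537 CPM in type 1 and at 7.71 to 242 CPM in type 2 libraries, with no overlap. Myc stood at 65.6 to 286 CPM in type 1 and 2.80 to 69.4 CPM in type 2. The mean difference, type 1 minus type 2 on the log2(CPM + 1) scale, was 2.43 for Myc, 2.09 for Npm1, 1.67 for Nop56, 1.22 for Odc1 and 1.14 for Nop58. It was 0.41 for Ncl, 0.16 for Fbl and 0.10 for Eif5a and below 0 for Cad (-0.46) and Srm (-0.72).

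**Figure D5:**
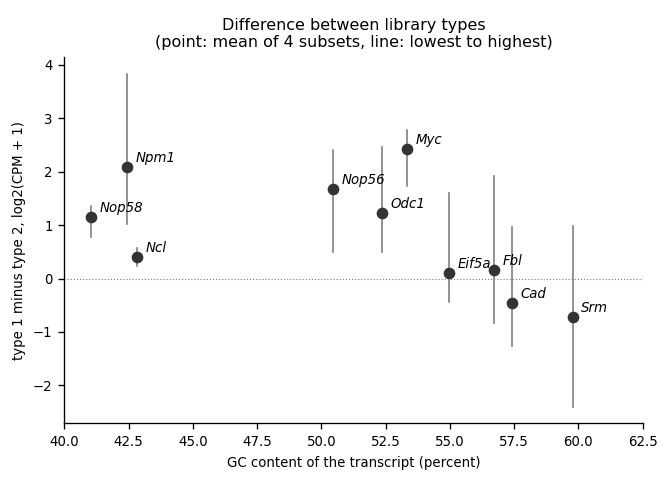
Difference between library types (type 1 minus type 2, log2(CPM + 1), y axis) against the GC content of the gene's transcript (percent, x axis) for the 10 genes, as the mean over 4 subsets with the lowest and highest subset as a line. Cad and Srm, at 57.4 and 59.8% GC, have means below 0, and Myc, at 53.3%, has the largest at 2.43.

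The types also differed in how levels followed GC content. The slope of log2 level per 10 points of GC content was -0.75 to 0.20 in type 1, 0.10 to 1.31 in type 2 and -0.80 to -0.30 in Immature and GC libraries. Srm and Cad, the genes with the highest GC content, had the lowest type differences, and Npm1 and Nop58, at 42.4 and 41.0%, had positive ones, but so had Myc at 53.3%. Within type 2 libraries alone the genotype difference of Eif5a was 3.51 in ABC, 1.17 in Follicular and 1.12 in MarginalZone cells and that of Srm 5.33, 1.16 and 1.55, with edgeR adjusted p from 0.12 to 0.97. With type as a term edgeR called Srm in Follicular cells (1.17, adjusted p = 0.040) and Srm (1.61, 0.035) and Eif5a (1.23, 0.020) in Plasma cells, where these fits called 1.38% and 6.42% of all genes. In type 2 libraries Myc differed by -0.89 in ABC and by 0.25 in Follicular and in MarginalZone cells and was not called. Plasma cells had 1 wt library of type 2, and no fit within the type was made there.

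In the average over subsets, single genes of the same pathways were called higher in 1Mek2, to be read against the 4.63% of all genes called higher. Of 52 genes of ribosomal RNA processing 6 were called higher by limma, among them Nhp2 (1.95 ± 0.30), a core protein of the box H/ACA particles, and Grwd1 (1.53 ± 0.34), a ribosome assembly factor. Of 12 polyamine and hypusine genes tested 1 was higher, Oaz1 (1.40 ± 0.20), the antizyme that sends Odc1 protein to the proteasome. Of 19 nucleotide synthesis genes 2 were, Nme1 (1.74 ± 0.25) and Nme2 (1.27 ± 0.25), and of 13 genes of the Myc and Max network 1 was, Mxd1 (0.93 ± 0.27), which competes with Myc for Max. Of 31 other growth genes 8 were higher, led by Eif4ebp1 (2.13 ± 0.34), a translation repressor, and Shmt2 (1.74 ± 0.29), a mitochondrial enzyme of one-carbon metabolism, and of 24 cell cycle genes 3 were. None of the 15 RNA polymerase I genes was called, and no gene of these lists was called lower.

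Within single subsets, Immature cells alone had called genes on these lists by edgeR. There 8 of 24 cell cycle genes were higher, with a list median of 1.99, among them Cdk1 (2.35 ± 0.45) and Tyms (2.10 ± 0.42), and 1 of 31 other growth genes, Bcat1 (2.38 ± 0.54). In Immature cells 0.81% of all genes were called higher. The ribosomal RNA processing list had 0 of 52 called there, with 45 of 52 differences above 0 and a median of 0.41.

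Against Follicular wt, most cell cycle genes were called higher in GC, Immature and Plasma cells, in which 14.6%, 32.3% and 12.2% of all genes were. Of all genes 10.5%, 7.15% and 5.53% were called lower there, and in ABC 11.9% were called higher and 8.3% lower. The counts below are to be read against these shares. GC cells had 24 of 24 called higher by edgeR (median 5.43), Immature cells 17 of 24 and Plasma cells 15 of 24, while ABC had 3 called lower of 21 tested. Of the 31 other growth genes 8 were higher and 1 lower in GC, 3 and 0 in Immature, 4 and 0 in Plasma and 0 and 3 in ABC cells. The GC genes included Bcat1 (3.67 ± 0.52), a branched-chain amino acid transaminase, and Shmt1 (2.18 ± 0.45), an enzyme of one-carbon metabolism. Of the 19 nucleotide synthesis genes 3 were higher and 2 lower in GC, with Umps (1.72 ± 0.54), which completes the pyrimidine pathway that Cad opens, among the higher. In Immature cells 1 was lower, in ABC 1 higher and 2 lower and in Plasma cells 1 higher. The 52 ribosomal RNA processing genes had 1 higher and 2 lower in GC, 1 higher and 4 lower in Immature, 0 in either direction in Plasma cells and 3 higher and 5 lower in ABC, where Gar1 (-5.02 ± 1.28) and Grwd1 (-4.93 ± 1.35) were lowest and Snu13 (2.74 ± 0.63), a box C/D protein, highest. Of the polyamine genes Azin1 (2.07 ± 0.44), an inhibitor of antizyme, was higher in GC cells, where Odc1 was higher too, and Mtap (-2.82 ± 0.66) and Dhps (-1.72 ± 0.36), which begins hypusine formation on Eif5a, were lower. Smox (3.88 ± 0.66), spermine oxidase, was higher in Plasma cells. In the Myc and Max network GC cells had Mxd3 (5.14 ± 0.56) and Fbxw7 (1.66 ± 0.32), which marks Myc for degradation, higher, and Plasma cells Mxd1 (2.79 ± 0.42).

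The genes whose level followed Myc most closely over the 40 libraries were Ddx20 (Spearman rho 0.88), Cct6a (0.87), Cdc23 (0.86), Naa50 (0.85) and Utp18 (0.85), out of 9599 genes. Among the other 9 members rho with Myc was 0.74 for Nop56, 0.73 for Npm1, 0.73 for Nop58, 0.52 for Ncl, 0.43 for Odc1 and -0.42 for Cad. The closest to the mean of the other 9 were Taf12 (0.88), Rpa2 (0.88), Psmc5 (0.88), Ndufa9 (0.87) and Tuba1c (0.87). The 40 points share library types, depth and mice, and these values are a description.

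In the genome (GRCm39, from the count table) Myc spans 15:61857190-61862210 and Eif5a 11:69807538-69812784, where Gps2 overlaps it on the other strand. Srm spans 4:148675970-148679076, and Cad 5:31211964-31235823, overlapping Atraid. Odc1 lies at 12:17594906-17601503 and Npm1 at 11:33102498-33114143, Ncl at 1:86272441-86287177, Nop58 at 1:59724165-59751352, Nop56 at 2:130112904-130121233 and Fbl at 7:27868293-27878701. Small nucleolar RNA genes lie within Ncl, Nop56 and Nop58, and Npm1, Eif5a and Odc1 have processed pseudogenes, so reads could be split among copies and overlapping genes and their counts are uncertain to that extent.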

How the data were processed

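Spleen B cell subsets were sequenced as bulk polyA libraries of 100 bp reads. Per the submitters' processing notes the tools included Trim Galore 0.6.5, STAR 2.7.11a and featureCounts 2.0.3 with GRCm39 (mm39). The authors deposited raw counts per gene span and TPM values per exonic length, with strandedness not given in the sources used here. Reads on exons were recovered from TPM times exonic length, and 100% of values came out whole within 0.02.

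The 10 genes and all lists were chosen with earlier results of these data known, and all 10 are named, with at most 2 called genes in each direction per list (mean of at least 5 CPM). Two-group tests used edgeR 4.0.16 (quasi-likelihood, TMM, filterByExpr, two-sided) in R 4.3.3. The average effect used limma 3.58.1 voom with the mouse as a random block. DESeq2 1.42.0, other scalings, exon reads, no filter, left-out libraries and terms for library measures were alternatives, those for type, GC slope, length slope, exon share and subsets added after seeing the data. Tests were tried on simulated counts. Library types came from clustering other genes. GC content came from GENCODE M21 transcripts. The number that opens each library's name was taken as the mouse, and p-values measure the spread between these libraries.

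Replicate numbers mark the same mice in Immature wt and GC wt (deviation correlations -0.23, -0.059 and 0.20) and in ABC wt and Follicular wt (0.083, 0.064 and -0.087), so the pairing there comes from the mouse. Depth limits low genes: Odc1 rested on as few as 3 reads and Srm on 4 in a library. Male mice, 3 of 16 by Ddx3y, were in both genotypes.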

Additional observations from a re-analysis of the deposited data

Results flagged for a closer look

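In the groups of 4 libraries (10 genes in 4 groups, 40 tested), 7 gene and group pairs held a library that stood apart from the other 3, by a gap over the range above the critical value for 4. For independent groups chance gives about 1 in 20, but the 10 genes were read in the same libraries. The share of all genes with such a library is not given here, so the count is no result about these 10. Of the 7, 6 came from the 2 type 1 Follicular libraries, in which these genes were high. Of 9599 other genes, 19.6% had the type 1 Follicular libraries above every type 2 Follicular library. Follicular wt replicate 4 stood apart for Npm1 (455 CPM, gap 0.927 of the range), Nop56 (383 CPM, 0.876) and Nop58 (181 CPM, 0.851). Follicular 1Mek2 replicate 2 stood apart for Myc (286 CPM, 0.855), Npm1 (474 CPM, 0.953) and Nop56 (552 CPM, 0.913). The seventh was Srm in GC wt replicate 1, the lowest of its group at 9.10 CPM (0.882). Eif5a differed in its genotype effect between subsets by the edgeR interaction test (adjusted p = 0.0478), which did not pass without ABC.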

How the results depend on the processing

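The members called between genotypes, 0 in each subset, became 6 in Immature with a replicate block, which called 4.76% of all genes against 0.933% without it (0 to 3 without single libraries, at 0.138 to 3.33%). They became 4 in ABC by DESeq2 (11.48% of all genes), 1 by limma voom (1.89%) and 1 with no filter on low counts (1.18%), 2 in Follicular by DESeq2 (0.948%) and 1 with a type term (1.38%), and 2 in Plasma by DESeq2 (7.26%), 2 with a type term (6.42%) and 1 with no filter (1.68%). Immature against Follicular wt, 1 member called and 39.4% of all genes, gave 6 with a replicate block (56.2%), 2 with no filter (48.2%), by limma voom (39.1%), with the neuronal gene term (3.60%) and with the mouse as random block (39.1%), 0 against Follicular wt replicate 4 alone (33.5%), and 1 to 6 without single libraries (34.6 to 59.1%). GC against Follicular wt, 1 called and 25.1%, gave 3 in exon reads (18.3%), by DESeq2 (31.9%), by limma voom (24.96%), with a replicate block (17.9%) and with the mouse as random block (24.96%), 0 with the neuronal gene term (9.89%) and against replicate 4 alone (1.63%), and 0 to 6 without single libraries (19.3 to 38.6%). ABC against Follicular wt, 2 called and 20.2%, gave 0 in exon reads (17.3%) and with the neuronal gene term (0%), 5 by DESeq2 (37.2%), 4 by limma voom (25.3%) and with the mouse as random block (25.7%), 1 with a replicate block (8.40%), with a type term (8.64%) and in type 2 alone (9.78%), and 1 to 5 without single libraries (6.72 to 42.1%). Plasma against Follicular wt, 2 called and 17.7%, gave 1 with no filter (11.52%) and in exon reads (16.1%) and 0 to 5 without single libraries (11.8 to 30.6%). GC against Immature wt, 1 called and 2.61%, gave 0 by RLE scaling, with no filter, by DESeq2, by limma voom, with a replicate block, with the neuronal gene term and with the mouse as random block (0.709 to 2.99%), and 0 to 1 without single libraries (0.485 to 2.72%). The average, 3 called and 5.997%, gave 6 with the GC slope term (16.4%), 5 with the exon share term (7.24%) and 1 in Immature and GC alone (1.04%), and the interaction, 1 called and 2%, gave 0 with no filter (1.43%) and in exon reads (3.36%) and 0 to 1 without single subsets (0.0638 to 2.37%). The neuronal sum of Immature, GC and ABC wt did not overlap that of Follicular wt, so those fits cannot part the term from the subset. Reversed values were Npm1 (0.60) and Eif5a (0.043) in ABC with the neuronal gene term, Myc (-1.24) in the average with the exon share term and Cad (-0.025) in the average of Immature and GC. The cause was not tested.

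Over 238 fits of the 14 comparisons, 2240 values of the members were recomputed. Of these 2088 kept direction and side of the threshold, 65 no longer passed, 83 newly passed and 4 reversed, and 200 that passed in neither fit changed sign. RLE scaling shifted the median of all genes by -0.37 in ABC between genotypes, 0.23 in ABC against Follicular, -0.17 in Immature against Follicular, -0.15 in GC against Immature and -0.10 in the average. In the genotype comparisons a replicate number is only a name, and the block left the other 5 subsets at 0 called. It is also only a name in Immature and GC against Follicular wt, which share no mouse. There the mouse as random block adds nothing to limma voom. For Immature cells the replicate block leaves Follicular wt replicate 4 alone in its block, so that library does not bear on the difference. No result is given for Plasma against Follicular wt with the mouse as random block, a pair that shares 1 mouse.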

Other observations

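Among the 10 genes the pairs that moved most alike over the 40 libraries were Ncl with Nop58 (Spearman rho 0.82), Npm1 with Nop56 (0.78), Npm1 with Nop58 (0.75) and Srm with Eif5a (0.74). The lowest were Nop56 with Cad (-0.44) and Nop58 with Cad (-0.43). The points share library types, depth and mice, and no test was made.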
